A study of Arabidopsis thaliana with 24 samples.

Results

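The plastid genome loci are the rows of the expression table whose identifier starts with ATCG, the prefix that Arabidopsis locus codes use for the chloroplast chromosome. The rule took 73 of the 20777 loci in the table and used no measured value. Transcript levels came from 24 Affymetrix ATH1 arrays, which carry short DNA probes for Arabidopsis genes, hybridised with total RNA of Arabidopsis thaliana wild type Col-0. Leaf 3 was sampled while proliferating (day 9 after sowing, leaf area 0.1 mm2), expanding (day 15, 7 mm2) and mature (day 22, 40 mm2), and the vegetative part of whole seedlings was sampled at growth stage 1.03, for which the labels give no day. At each of the 4 stages, 3 arrays came from plants grown in vitro on medium with 25 mM mannitol and 3 from plants grown on medium with 0 mM, referred to as control. Mannitol, a sugar alcohol, makes the medium hold its water more tightly, and the title of the series asks how the developmental stage of a leaf shapes its response to prolonged osmotic stress. The replicates were separate experiments, and each sample pooled many plants and plates.

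The plastid genome is what remains of the genome of a cyanobacterial ancestor. In the reference annotation it holds 129 entries, of which 85 are protein coding, 37 are tRNAs and 7 are rRNAs. The protein-coding entries carry 78 distinct symbols, among them 15 for photosystem II, 5 for photosystem I, 6 for cytochrome b6f, 6 for the ATP synthase, 11 for the NDH complex of cyclic electron flow, 21 for ribosomal proteins and 4 for the plastid-encoded RNA polymerase. The large subunit of Rubisco has 1 symbol. Nuclear phage-type polymerases and the plastid-encoded polymerase share the transcription of this genome. The plastid-encoded enzyme needs nuclear sigma factors to find its promoters, and its transcripts of photosynthesis genes are known to build up as proplastids of dividing cells become chloroplasts. None (0) of the 73 codes is paired with a gene symbol in the sources used here, so the loci are given by code, with no role assigned, and were not divided by encoded function.

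Levels are on the log2 scale, on which a difference of 1 is a 2-fold change, and differences were tested with limma over all 20777 loci with two-sided tests. A locus was called at a Benjamini-Hochberg adjusted p under 0.05. Rose and fell refer to called loci. Array medians over all loci lay between 5.91 and 6.16, and replicates of a group correlated at 0.990 to 0.997. The median replicate SD of the plastid loci ran from 0.08 in seedlings on mannitol to 0.18 in proliferating control leaves. The 5 markers of dividing cells averaged 8.28 to 8.49 on the 6 arrays of proliferating leaf, 5.33 to 5.69 in expanding leaf and 4.40 to 4.59 in mature leaf. The 5 markers of root hairs averaged no more than 4.24 on any array. The submitters named standard Affymetrix labelling. How that labelling was primed is not given in the sources used here. In plastids, poly(A) tails mark transcripts for decay, and the part that tails or transcript stability played in these levels was not tested. In whole organs, fewer cells of a type and less RNA per cell cannot be told apart.

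The plastid loci were lowest in proliferating leaf. On the arrays of this stage the median of the 73 loci was 10.81, 11.16 and 11.09 on mannitol, and 10.63, 11.00 and 10.85 in control. On the other 18 arrays it lay between 11.56 and 11.87, with no overlap. Among the 4 control stages, 6 loci had their lowest mean in seedlings, 53 in proliferating leaf, 0 in expanding leaf and 14 in mature leaf. The highest mean was in seedlings for 11 loci, in proliferating leaf for 8, in expanding leaf for 28 and in mature leaf for 26. The range over the 4 control means had a median of 0.83 and ran from 0.07 to 3.97.

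**Figure D1:**
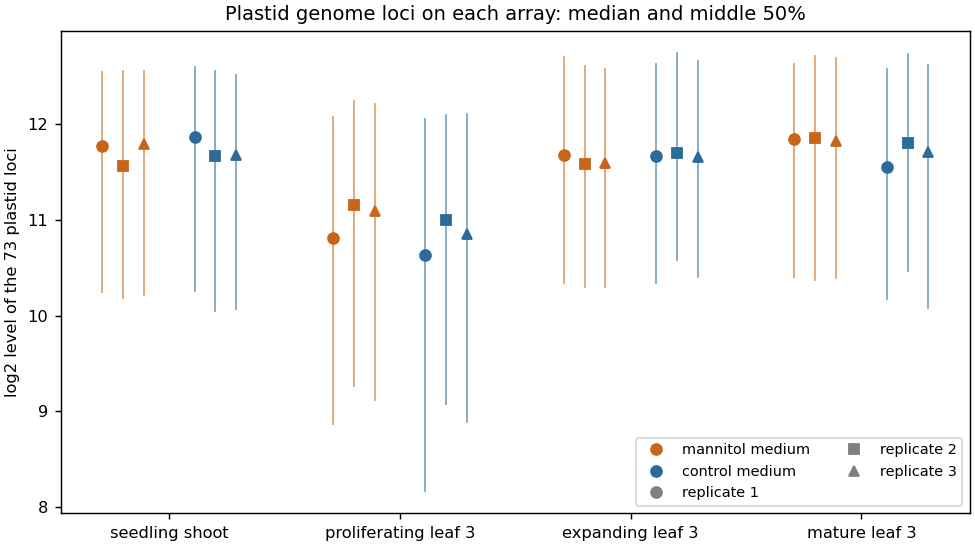
Median log2 level of the 73 plastid loci on each of 24 arrays (symbols, with shape for replicate) and the middle 50% of the loci (lines), by stage, with mannitol left of control. Every proliferating array has a median between 10.63 and 11.16, below all arrays of the other stages.

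Between proliferating and expanding control leaf, 53 of the 73 loci rose and 5 fell, where 29.1% of all loci rose and 31.5% fell. The median change of the plastid loci was 0.61, with a range of -0.66 to 3.59, against 0.04 for all loci. Of the 53 rises, 11 were by 2 or more on the log2 scale, 15 by 1 to 2, 17 by 0.5 to 1 and 10 by less than 0.5. The remaining 15 loci were not called.

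ATCG00270 had the largest rise. It measured 12.46, 12.72 and 12.55 in expanding control leaves, against 8.16, 9.46 and 9.33 in proliferating control leaves. The difference was 3.59 ± 0.23 (SE, n = 3 each), which is 12.1-fold, with a limma adjusted p of 2.93e-12. The groups were far apart, and proliferating replicate 1 was the lowest array of all. ATCG00680 followed at 3.42 ± 0.30 (SE, limma adjusted p = 5.8e-10), with 12.02, 11.89 and 12.08 in expanding control leaves against 7.51, 9.01 and 9.22 in proliferating control leaves. Here too proliferating replicate 1 lay well below its companions. ATCG00350 measured 13.01, 13.11 and 13.05 in expanding control leaves, against 9.32, 10.56 and 10.42 in proliferating control leaves, a rise of 2.96 ± 0.21 (SE). ATCG00690, the code after ATCG00680, rose by 2.83 ± 0.30 (SE), to a mean of 10.42 ± 0.23 in expanding control leaves against 7.59 ± 0.93 in proliferating control leaves (SD, n = 3 each). ATCG00020 rose by 2.60 ± 0.16 (SE), with 10.50, 11.26 and 11.18 in expanding control leaves against 8.45, 8.47 and 8.23 in proliferating control leaves. In contrast to the loci before it, ATCG00020 had close replicates in proliferating leaf and its widest spread in expanding leaf.

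In proliferating leaf replicate 1 was the lowest of 3 arrays for 53 of the 73 loci on mannitol and for 46 in control, and the highest SD of any locus in any group was 1.02, for ATCG00360 in proliferating control leaf (8.09, 9.96 and 9.72). Leaving out proliferating control replicate 1 gave a median change of 0.63 over the 73 loci and a largest change of 3.18. Over all arrays left out in turn, 49 to 54 loci rose and 4 to 5 fell.

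The 5 loci that fell ran against the majority. ATCG00660 measured 8.74, 8.34 and 8.46 in expanding control leaves, against 9.10, 9.44 and 8.99 in proliferating control leaves, a change of -0.66 ± 0.15 (SE, n = 3 each, limma adjusted p = 0.000696). Its groups did not overlap. ATCG01010 had 3.66, 3.66 and 3.70 in expanding control leaves, against 4.06, 4.54 and 4.25 in proliferating control leaves, a change of -0.61 ± 0.14 (SE). Its mean over all arrays lay below 4.10, the limit of the dimmest 25% of loci, the only plastid locus of which this holds. ATCG00330 was also dim, with 3.90, 4.26 and 4.11 in expanding control leaves against 5.07, 4.04 and 4.79 in proliferating control leaves, and its groups overlapped (change -0.54 ± 0.18, SE, called in 8 of 12 alternative fits). ATCG00040 fell by 0.34 ± 0.09 (SE) and ATCG00740 by 0.23 ± 0.08 (SE). Both had groups that did not overlap in spite of these small changes. Centring each array on its median moved the change of all loci by 0.10 in this comparison. The fall of ATCG00740 was then 0.12 and was no longer called (limma adjusted p = 0.187), while the median of the 73 loci was 0.72. In a fit of these 2 groups alone, 3 loci fell.

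**Figure D2:**
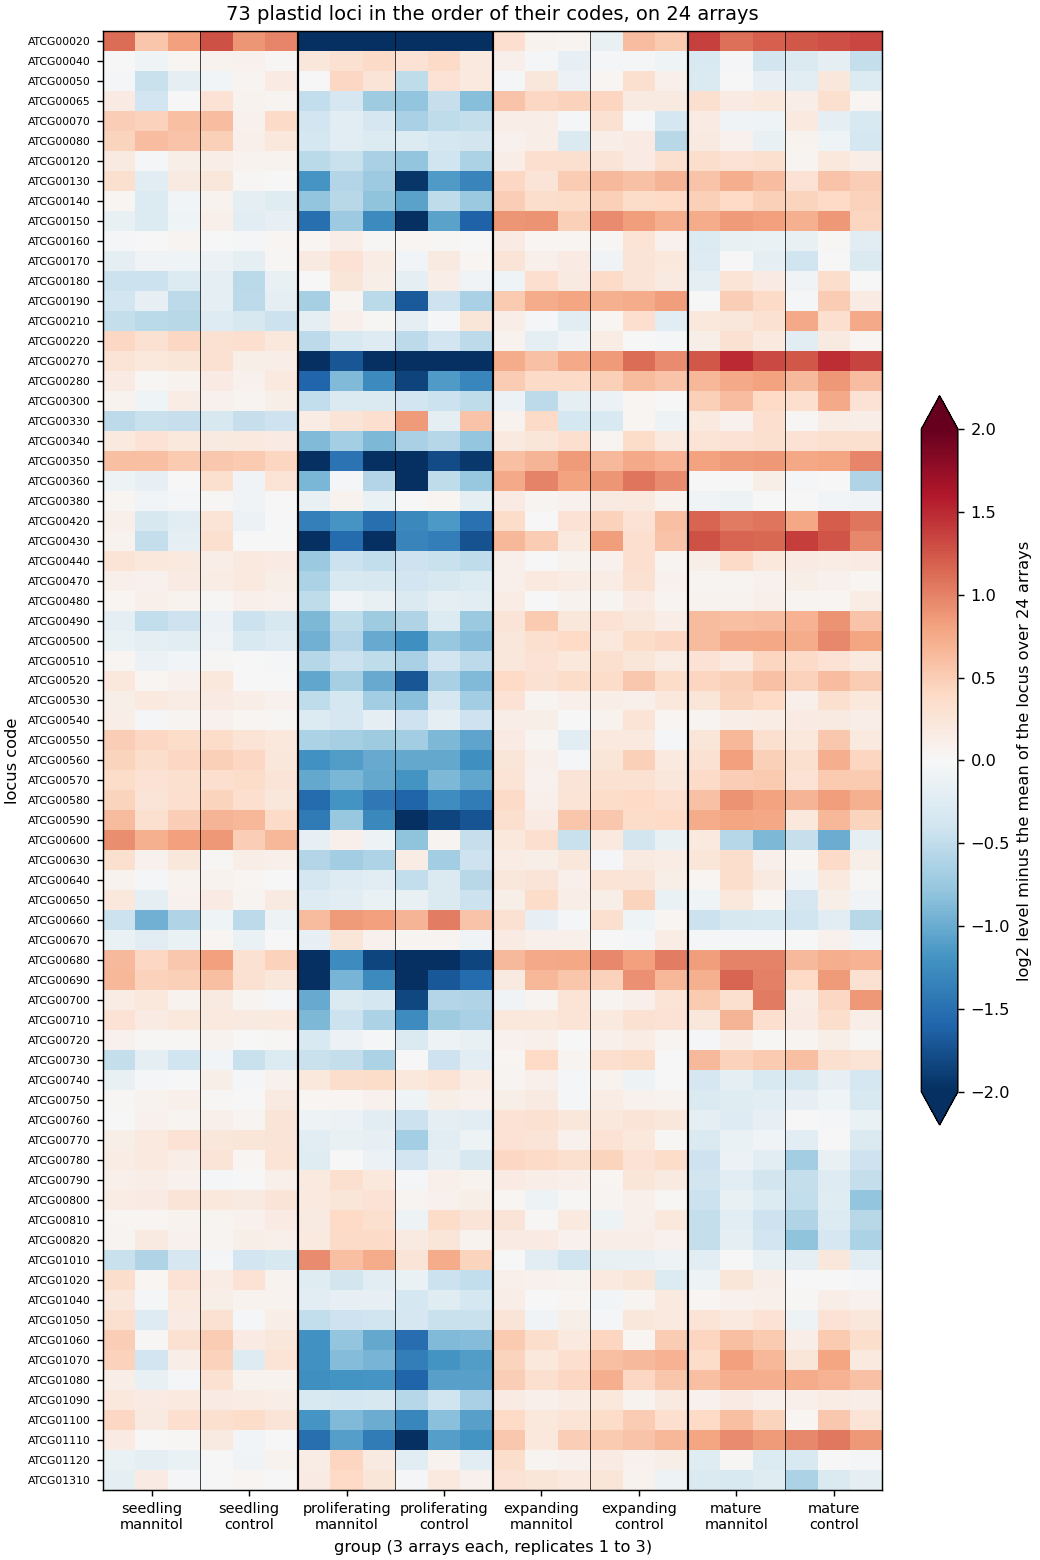
Log2 level of each of the 73 plastid loci on each of 24 arrays minus the mean of the locus, in the order of the codes, with 3 arrays per group and mannitol left of control at each stage. The proliferating columns are blue for most loci, and red for ATCG00660 and ATCG01010. The scale ends at -2 and 2, so larger deviations share the end colours.

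Between expanding and mature control leaf, fewer plastid loci changed: 8 rose and 15 fell, where 18.8% of all loci rose and 21.6% fell. The rises were 11% of the 73 loci. The falls were 20.5%, near the share of all loci. The median change was -0.04 over the 73 loci and 0.01 over all loci, and the changes ran from -1.19 to 0.96. With each array centred on its median, 9 plastid loci rose and 9 fell. All loci moved as well, with 5164 rises and 3672 falls after centring against 3904 and 4493 without it. In a fit of these 2 groups alone 9 plastid loci fell. This step shares the expanding control arrays with the one before. Markers of senescing leaf moved with it: 3 of 5 rose in control leaf (SEN1, AT4G35770, by 4.47, NAP, AT1G69490, by 3.82 and SAG13, AT2G29350, by 0.90), 0 fell, and the median change was 0.90. Their mean was 6.58 to 6.83 on the mature control arrays and 4.69 to 4.83 on the expanding control arrays. SAG12 (AT5G45890), the marker most specific to senescence, averaged no more than 3.45 in any group, among the dimmest 25% of loci. Of the 5 dividing-cell markers, 2 fell and 0 rose in control leaf at this step. The part that senescence or cell division played in the plastid changes was not tested.

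The largest rise was in ATCG00020. It measured 11.90, 11.93 and 11.99 in mature control leaves, against 10.50, 11.26 and 11.18 in expanding control leaves, a change of 0.96 ± 0.16 (SE, n = 3 each, limma adjusted p = 3.28e-05). Its 3 mature arrays were almost level and all lay above the expanding ones. ATCG00430 rose by 0.63 ± 0.17 (SE), with a mean of 9.99 ± 0.21 in mature control leaves against 9.36 ± 0.25 in expanding control leaves (SD, n = 3 each). The neighbouring code ATCG00420 rose by 0.57 ± 0.14 (SE). ATCG00210 measured 8.16, 7.73 and 8.15 in mature control leaves against 7.44, 7.73 and 7.19 in expanding control leaves, a change of 0.56 ± 0.13 (SE). It was the 1 locus that rose at this step without a call at the first. ATCG00490 (0.51 ± 0.13, SE), ATCG00500, ATCG00300 and ATCG00580 made up the other rises, down to 0.38. All 8 rises were called in each of 12 alternative fits, against 7 of the 15 falls.

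The largest fall was in ATCG00360, with 10.43, 10.47 and 9.87 in mature control leaves against 11.36, 11.54 and 11.43 in expanding control leaves, a change of -1.19 ± 0.30 (SE, n = 3 each, limma adjusted p = 0.00255). This locus had risen by 2.18 at the first step. ATCG00780 measured 10.50, 11.05 and 10.80 in mature control leaves, against 11.64, 11.49 and 11.57 in expanding control leaves, a change of -0.78 ± 0.11 (SE). ATCG00820 had 10.59, 11.06 and 10.76 in mature control leaves, against 11.54, 11.53 and 11.48 in expanding control leaves, a change of -0.71 ± 0.10 (SE). The expanding arrays of ATCG00820 were tight, and the mature arrays spread below them. ATCG00800 (-0.57 ± 0.10, SE) and ATCG00810 (-0.56 ± 0.12, SE) came next.

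ATCG00780, ATCG00800, ATCG00810 and ATCG00820 belong to a run of 9 consecutive measured codes, ATCG00740 to ATCG00820, chosen after the values were seen and therefore only described. Arabidopsis codes are numbered in order along a chromosome, but no positions of these loci were used. All 9 fell between expanding and mature leaf on mannitol (median -0.45, range -0.62 to -0.27) and all 9 in control (median -0.55, range -0.78 to -0.26). Of the other 64 loci, 6 fell on mannitol and 6 in control. Of the 15 falls in each medium, 8 on mannitol and 7 in control were called in all 12 alternative fits. So in neither medium were all 9 codes called in every fit. At the first step the 9 codes had a median change of 0.06 in control, with 3 rises and 1 fall, against 0.76 for the other 64.

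Put together in control leaf, 42 loci rose at the first step and were not called at the second. Another 7 rose at both (ATCG00020, ATCG00300, ATCG00420, ATCG00430, ATCG00490, ATCG00500 and ATCG00580). ATCG00360, ATCG00760, ATCG00770 and ATCG00780 rose and then fell. ATCG00040, ATCG00660 and ATCG00740 fell at both steps, and 8 loci fell only at the second. No call was made at either step for 6 loci. The 8 loci with a mean level above 13, near the top of the table at 14.36, had a median size of change of 0.42 at the first step against 0.66 for the other 65. Whether these probes approach saturation was not tested.

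**Figure D3:**
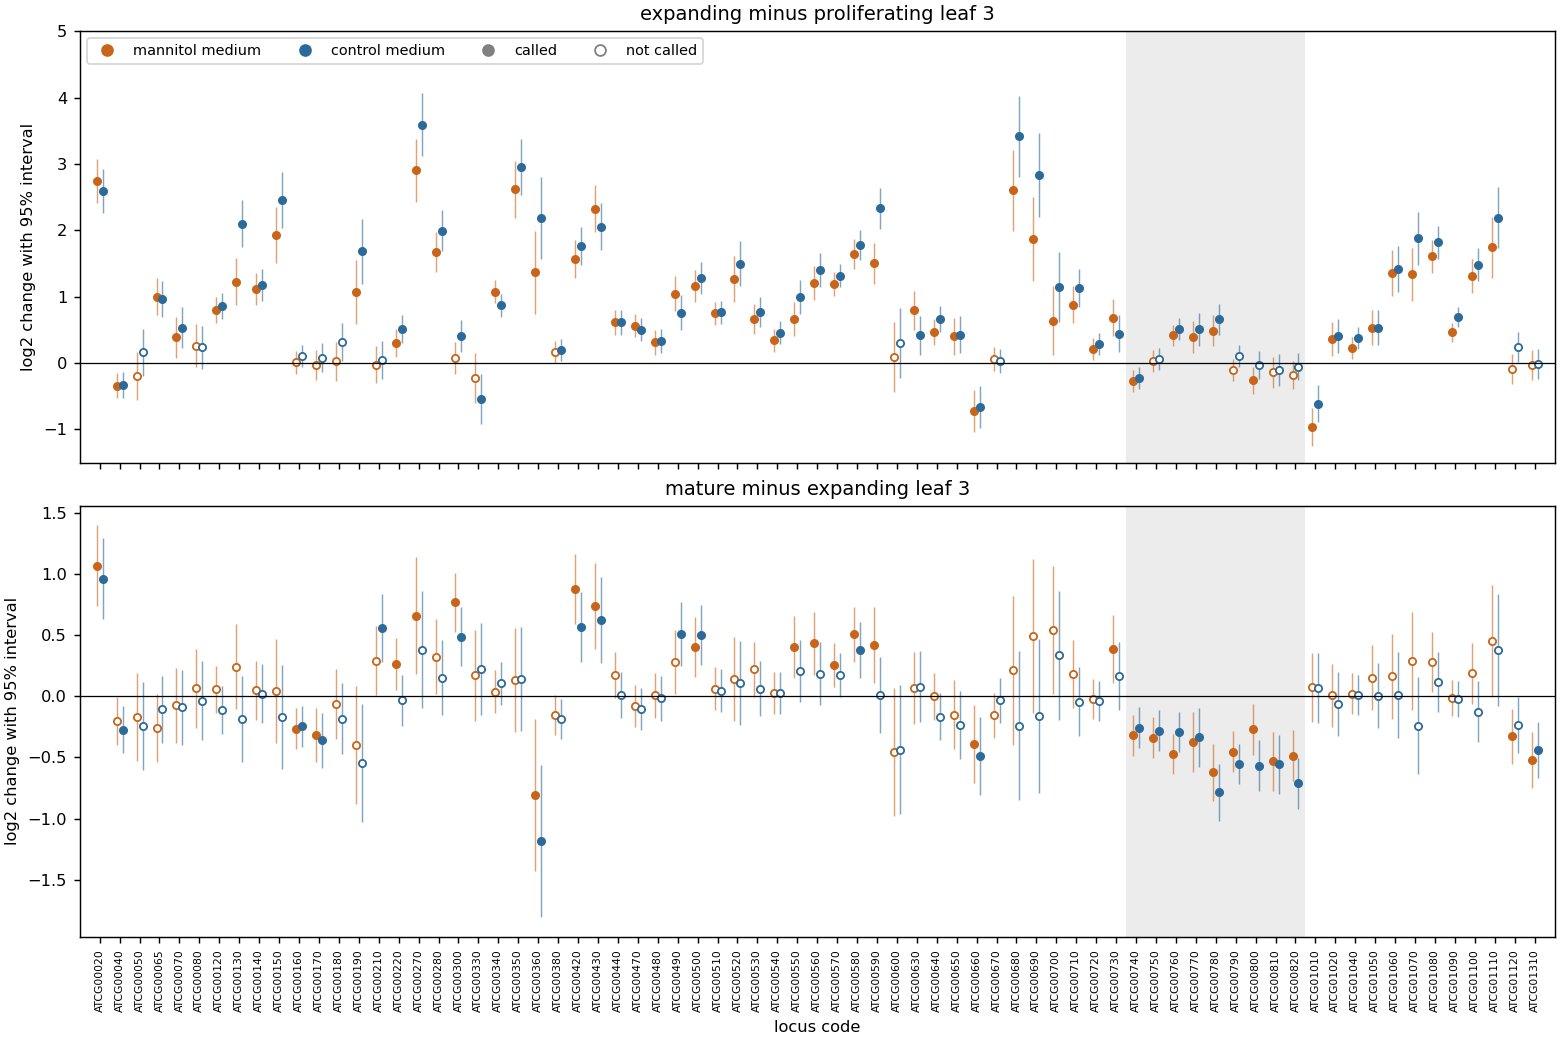
Log2 change of each plastid locus with its 95% interval between leaf stages, in code order, on mannitol (orange, left) and control medium (blue, right), with filled symbols for called loci. Most loci lie above 0 in the upper panel, and the 9 loci in the grey band, ATCG00740 to ATCG00820, all lie below 0 in the lower panel on both media.

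Both steps were also compared on mannitol, where the arrays are different ones but not independent repeats of the control steps. Same-numbered mannitol and control samples deviated together in proliferating and expanding leaf, and all groups share an estimate of the spread. Between proliferating and expanding leaf on mannitol 51 loci rose and 5 fell, where 33.2% of all loci rose and 31.8% fell, and the median change was 0.56. All 51 rises were among the 53 rises of control leaf, so 100% of the mannitol list and 96.2% of the control list were shared. The overlap was not taken over all loci, so it is only described. Of the 5 falls in each medium, 4 were shared (80%). ATCG00270 led here as well, with 12.35, 12.19 and 12.36 in expanding leaves on mannitol against 8.91, 9.88 and 9.39 in proliferating leaves on mannitol, a change of 2.90 ± 0.23 (SE, n = 3 each). It was followed by ATCG00020 (2.75 ± 0.16, SE), ATCG00350 (2.62 ± 0.21, SE), ATCG00680 (2.60 ± 0.30, SE) and ATCG00430 (2.32 ± 0.17, SE). Among the falls were ATCG01010 (-0.96 ± 0.14, SE) and ATCG00660 (-0.73 ± 0.15, SE). Centring moved all loci by 0.13 in this comparison, left 2 falls and put the median of the 73 loci at 0.69. With centring 5735 of all loci fell. After quantile normalization 8 plastid loci fell, where 6549 of all loci fell.

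Between expanding and mature leaf on mannitol 13 loci rose and 15 fell, where 18.6% of all loci rose and 21.5% fell. The counts are 17.8% and 20.5% of the 73 loci, near the shares of all loci, and are only described. With centring 15 plastid loci rose and 10 fell, where 4399 of all loci rose and 3846 fell. Of the 5 senescing-leaf markers 2 rose and 1 fell at this step on mannitol (median 0.32). Of the falls, 14 were shared with control (93.3% of each list), and of the rises 6 were shared, which is 46.2% of the mannitol list and 75% of the control list. No locus (0) was called in opposite directions on the 2 media at either step. For these overlaps too, no share over all loci was taken. ATCG00020 again rose most (1.07 ± 0.16, SE), ahead of ATCG00420 (0.88 ± 0.14, SE), ATCG00300 (0.77 ± 0.12, SE), ATCG00430 (0.74 ± 0.17, SE) and ATCG00270 (0.66 ± 0.23, SE, called in 8 of 12 alternative fits). The largest falls were in ATCG00360 (-0.81 ± 0.30, SE), ATCG00780 (-0.62 ± 0.11, SE), ATCG00810 (-0.53 ± 0.12, SE), ATCG01310 (-0.52 ± 0.11, SE) and ATCG00820 (-0.49 ± 0.10, SE). Single arrays moved these counts: without mature mannitol replicate 2 there were 7 rises, without mature mannitol replicate 1 there were 9 falls, and without expanding mannitol replicate 1 there were 8 falls. The fall of ATCG00360 on mannitol lost its call when any 1 of the 6 arrays was left out.

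The median of the 73 loci was 11.87, 11.67 and 11.67 in control seedlings and 11.67, 11.70 and 11.66 in expanding control leaves. In the control comparison of seedlings with expanding leaf, 2 loci were higher and 16 lower, where 14.5% of all loci were higher and 18.3% lower. The 16 lower loci were 21.9% of the 73, near the share of all loci. This comparison uses the expanding control arrays again. ATCG00600 was higher, with 8.66, 8.28 and 8.46 in seedlings against 7.99, 7.43 and 7.64 in expanding leaves (0.78 ± 0.25, SE, n = 3 each). ATCG00020 was higher by 0.71 ± 0.16 (SE). The largest deficits were in ATCG00190, with 7.63, 7.29 and 7.63 in seedlings against 8.51, 8.54 and 8.65 in expanding leaves (-1.06 ± 0.23, SE). ATCG00150 (-0.93 ± 0.20, SE), ATCG00360 (-0.79 ± 0.30, SE), ATCG00270 (-0.79 ± 0.23, SE) and ATCG00180 (-0.56 ± 0.14, SE) followed. The call of ATCG00360 held in 5 of 12 alternative fits, with a limma adjusted p of up to 0.144. The 2 higher loci became 5 without expanding control replicate 1 and 1 without seedling control replicate 1. The 16 lower loci became 10 without expanding control replicate 1 or seedling control replicate 2, and 9 without seedling control replicate 3. With quantile normalization 4 plastid loci were higher and 13 lower, where 3111 of all loci were higher and 3617 lower.

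**Figure D4:**
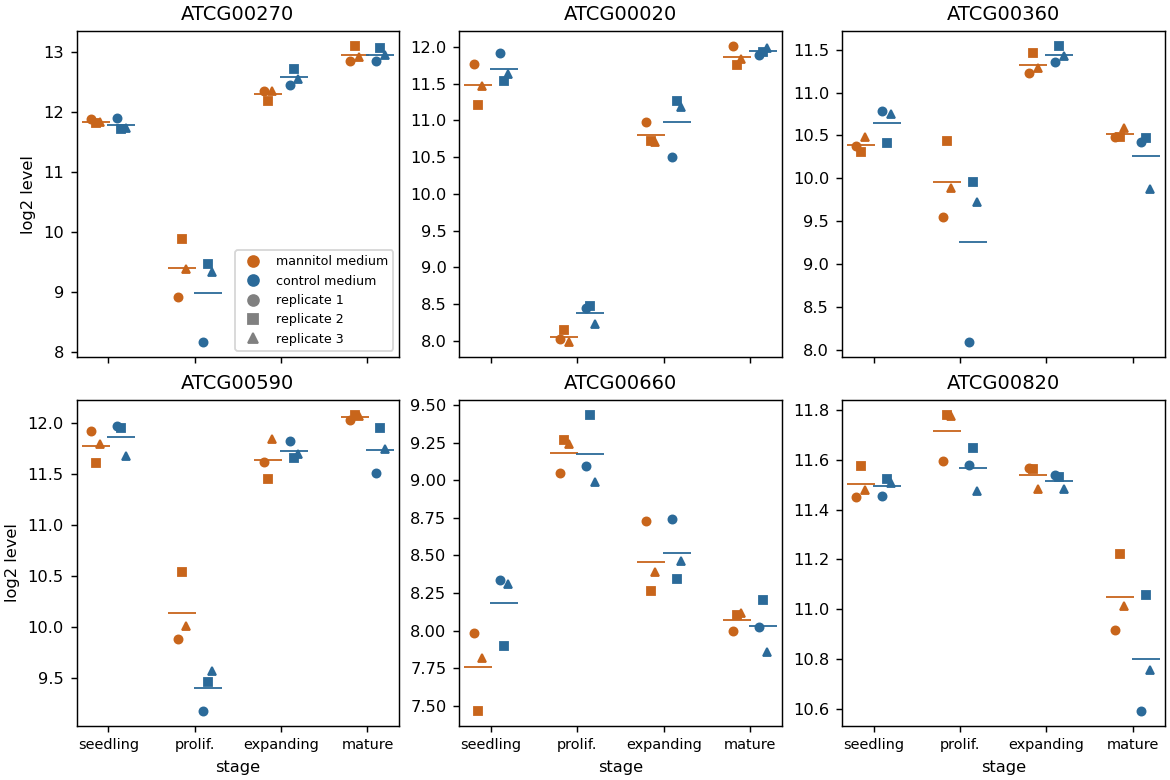
Log2 level of 6 plastid loci on every array by stage, with mannitol (orange) left of control (blue), horizontal bars for group means and symbol shapes for replicates. ATCG00270 and ATCG00020 are lowest in proliferating leaf, ATCG00360 peaks in expanding leaf, ATCG00590 is higher on mannitol in proliferating leaf, ATCG00660 is highest in proliferating leaf, and ATCG00820 is lowest in mature leaf.

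On mannitol against control, 1 plastid locus was called over the 4 stages in the fit without a replicate block. In seedlings and proliferating leaf the count of plastid loci was near the share of all loci called. In seedlings no locus (0) was called, where 1.17% of all loci rose and 0.274% fell on mannitol. In proliferating leaf 1 locus rose and 0 fell, where 1.57% of all loci rose and 0.241% fell. In expanding leaf no locus (0) was called, where 4.02% rose and 3.62% fell, and in mature leaf no locus (0) was called, where 2.99% rose and 1.84% fell. At an unadjusted p under 0.05 limma counted 1 of the 73 loci in seedlings, 13 in proliferating leaf, 1 in expanding leaf and 4 in mature leaf. For counts at an unadjusted p, here and below, no share of all loci was taken, so they are only described. The median mannitol effect over the 73 loci was -0.01 in seedlings, 0.11 in proliferating, -0.03 in expanding and 0.05 in mature leaf. All 73 effects were smaller than 0.5 in size in seedlings, expanding and mature leaf, and 67 were in proliferating leaf. The 95% intervals reached a median of 0.25 to either side, at most 0.63, so small effects were not detectable with 3 arrays a group.

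ATCG00590 was the locus that rose in proliferating leaf. It measured 9.88, 10.54 and 10.00 on mannitol, against 9.17, 9.46 and 9.57 in control, a change of 0.74 ± 0.15 (SE, n = 3 each, limma adjusted p = 0.00618). All 3 mannitol arrays lay above the control arrays. Without proliferating control replicate 1 the count was 0, without proliferating control replicate 2 it was 3, and without proliferating mannitol replicate 1 it was 2. In a fit of these 2 groups alone it was 0 (limma adjusted p = 0.127 for ATCG00590). ATCG00130 had the next smallest p by the naming rule, with 10.81, 11.41 and 11.26 on mannitol against 10.05, 10.86 and 10.68 in control (0.63 ± 0.17, SE, limma adjusted p = 0.0574). Its groups overlapped although each mannitol array exceeded the control array of the same number.

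In seedlings, proliferating leaf and expanding leaf, same-numbered mannitol and control samples deviated together. With the replicate number as a block within each stage, a fit added after the data were seen, 7 loci rose and 0 fell in proliferating leaf, where 2.42% of all loci rose and 0.794% fell. They were ATCG00590, ATCG00690 (0.75 ± 0.13, SE), ATCG00130 (0.63 ± 0.09, SE), ATCG00680 (0.61 ± 0.14, SE), ATCG00150 and ATCG00700 (each 0.46), and ATCG01120 (0.38 ± 0.08, SE), with limma adjusted p between 0.000552 and 0.0329. All 7 were higher on mannitol in 3 of 3 pairs. The pair differences of ATCG01120 were 0.37, 0.37 and 0.39, close to equal, whereas those of ATCG00680 were 1.02, 0.80 and 0.01. Of the 73 loci, 31 were higher and 6 lower on mannitol in all 3 pairs of proliferating leaf, where 15.4% of all loci were higher and 22.7% lower in all 3. In seedlings 9 were higher and 17 lower (16.1% and 21.0% of all loci), and in expanding leaf 3 were higher and 15 lower (17.0% and 20.4% of all loci). The lean to higher values was not particular to proliferating leaf. In mature leaf 23 were higher and 5 lower (18.4% and 26.7% of all loci), though the numbers were not taken as pairs there. With the same block ATCG00660 fell in seedlings, with 7.99, 7.46 and 7.81 on mannitol against 8.33, 7.90 and 8.31 in control (-0.43 ± 0.09, SE, limma adjusted p = 0.0211), where 1.75% of all loci rose and 0.616% fell. ATCG01070 fell in expanding leaf, with 9.29, 9.06 and 9.18 on mannitol against 9.45, 9.49 and 9.55 in control (-0.32 ± 0.09, SE, limma adjusted p = 0.0349), where 5.15% of all loci rose and 5.37% fell. Of the senescing-leaf markers, WRKY53 (AT4G23810), a transcription factor, was higher on mannitol by 1.02 in seedlings, 1.34 in proliferating leaf and 1.52 in expanding leaf in the fit without the block, and the other 4 were not called at these stages. In mature leaf 0 of these 5 markers were higher and 1 was lower on mannitol (range -1.09 to 0.20). Of the 5 dividing-cell markers, 1 was higher on mannitol in expanding leaf and 1 in mature leaf, and 0 were lower.

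**Figure D5:**
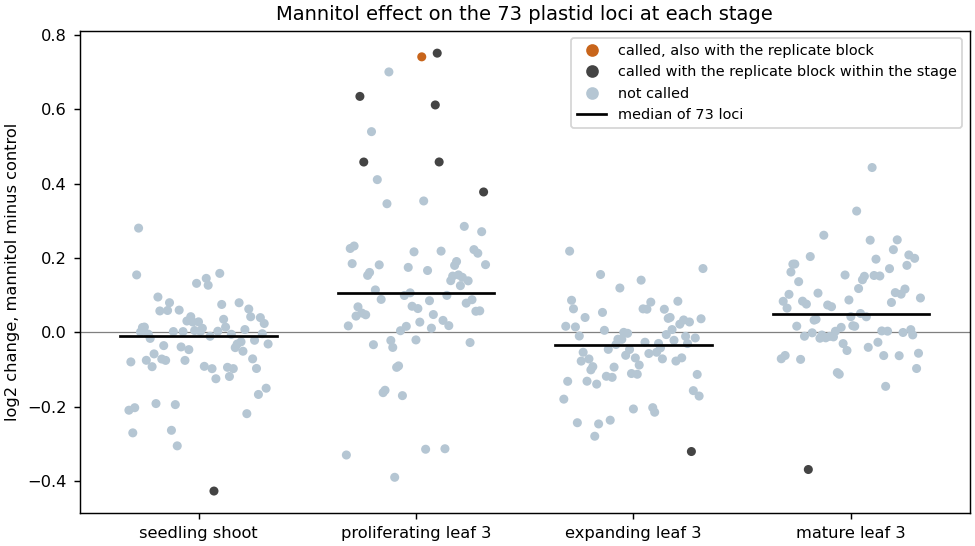
Log2 change, mannitol minus control, of each of the 73 plastid loci at 4 stages, with black bars at the medians (-0.01, 0.11, -0.03 and 0.05). ATCG00590 in proliferating leaf is the orange point, and dark points are loci called only with the replicate block within the stage.

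In the mature leaf comparison the smallest p belonged to ATCG00210, with 7.61, 7.63 and 7.70 on mannitol against 8.16, 7.73 and 8.15 in control (-0.37 ± 0.13, SE, limma adjusted p = 0.123). Its mannitol arrays all lay below the control arrays. Without mature control replicate 2, the highest control array for 53 of the 73 loci, 2 loci rose (ATCG00800 and ATCG00820) and 1 fell (ATCG00210). Whether the mannitol effect differed between leaf stages was tested directly. The moderated F test over the 3 leaf stages called 0 of the 73 loci, where 4.71% of all loci were called, and 3 had an unadjusted limma p under 0.05. The smallest adjusted p was 0.0579, for ATCG00590. Leaving out proliferating mannitol replicate 1 gave 2 calls, and leaving out proliferating control replicate 2, expanding mannitol replicate 3 or mature control replicate 2 gave 1 each. Without the replicate block no pairwise difference between leaf stages was called for any of the 73 loci (0 of 73 in each of the 3 comparisons). For expanding minus proliferating leaf 0.645% of all loci had a larger and 0.655% a smaller mannitol effect, and 6 plastid loci had an unadjusted limma p under 0.05. For mature minus expanding leaf the shares were 1.66% and 1.76%, with 1 such plastid locus, and for mature minus proliferating leaf 1.26% and 1.38%, with 4.

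Proliferating and expanding leaf were both taken as paired, and with the replicate block within each stage their mannitol effects differed for 6 of the 73 loci. All 6 had a smaller (more negative) effect in expanding than in proliferating leaf and 0 a larger one, where 1.31% of all loci had a smaller and 1.26% a larger effect. They were ATCG00690 (difference -0.96 ± 0.19, SE), ATCG00130 (-0.88 ± 0.12, SE), ATCG00590 (-0.83 ± 0.18, SE), ATCG00680 (-0.81 ± 0.20, SE), ATCG00270 (-0.69 ± 0.16, SE) and ATCG01070 (-0.54 ± 0.13, SE), with limma adjusted p between 0.00155 and 0.0410. ATCG00130, with the smallest p, measured 12.40, 12.25 and 12.51 in expanding leaf on mannitol against 12.64, 12.58 and 12.67 in control, higher in 0 of 3 pairs, whereas in proliferating leaf it was higher in 3 of 3. The F test with the same block called 6 loci, where 8.51% of all loci were called. It includes mature leaf, where the numbers were not taken as pairs. Without the block within each stage the difference between expanding and proliferating leaf was called for 0 to 2 loci in the alternative fits.

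Nuclear genes that act on the plastid genome changed over the same leaf stages. Of 7 genes for a nuclear plastid polymerase and sigma factors, 6 rose and 1 fell between proliferating and expanding control leaf (median 1.72). Of all loci, 29.1% rose and 31.5% fell at this step. SIGE (AT5G24120), a sigma factor known to respond to blue light and stress, averaged 5.61 ± 0.01 in proliferating, 9.01 ± 0.07 in expanding and 11.15 ± 0.02 in mature control leaves (SD, n = 3 each). SIGA (AT1G64860) rose by 2.28, SIG4 (AT5G13730) by 2.16, SIGC (AT3G53920) by 1.72, SIG2 (AT1G08540) by 0.92 and SIGF (AT2G36990) by 0.48. SCA3 (AT2G24120), a phage-type polymerase, averaged 7.19 ± 0.45 in expanding control leaves and 8.17 ± 0.22 in proliferating control leaves (SD, n = 3 each), a change of -0.98. AT5G15700, on the same list but not counted among the 7, averaged 5.65 ± 0.08 in expanding and 5.94 ± 0.26 in proliferating control leaves (SD). Of 12 proteins associated with the plastid-encoded polymerase, 0 rose and 11 fell (median -1.07), among them the iron superoxide dismutase FSD3 (AT5G23310, -1.72) and PTAC12 (AT2G34640, -1.27). From expanding to mature control leaf 4 of the 7 rose and 1 fell, and of the 12 associated proteins 0 rose and 8 fell. There 18.8% of all loci rose and 21.6% fell. On mannitol against control, 0 of the 7 changed at any single stage. The mannitol effect on SIGE, however, differed between leaf stages (F test, limma adjusted p = 0.0302), with means of 5.96 on mannitol and 5.61 in control in proliferating leaf, 8.66 and 9.01 in expanding leaf, and 11.07 and 11.15 in mature leaf. The effect in expanding minus that in proliferating leaf was -0.70 (limma adjusted p = 0.0309). Of the 12 associated proteins, FSD2 (AT5G51100, 0.39) rose in expanding leaf on mannitol, while FLN2 (AT1G69200, -0.75), FLN1 (AT3G54090, -0.69) and PTAC2 (AT1G74850, -0.40) fell in mature leaf. Of all loci, 4.02% rose on mannitol in expanding leaf and 1.84% fell in mature leaf. The F test called FLN1 among these 12 (limma adjusted p = 0.0376), where 4.71% of all loci were called.

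Nuclear subunits of complexes whose other subunits are plastid-encoded were counted alongside. In control leaf 29.1% of all loci rose and 31.5% fell at the first step, and 18.8% rose and 21.6% fell at the second. Between proliferating and expanding control leaf all 12 photosystem I genes rose (median 1.27; PSAD-2, AT1G03130, 2.31), as did all 10 photosystem II genes (median 1.39; PSBO2 of the oxygen-evolving complex, AT3G50820, 2.34) and all 15 NDH genes (median 2.47; NdhL, AT1G70760, 3.11). Of 3 ATP synthase genes, 2 rose (ATPD, AT4G09650, by 2.53 and ATPC1, AT4G04640, by 1.88) and 1 fell (ATPC2, AT1G15700, -1.13). Of the 14 plastid ribosomal protein genes kept by name, which are only part of those listed, 12 rose with a median of 0.45. At the step to mature control leaf all 14 of these fell (median -0.82; RPL9, AT3G44890, -1.31), while 0 of the 12 photosystem I genes were called, 2 of the 10 photosystem II genes fell (PSBTN, AT3G21055, -0.34 and PSBQA, AT4G21280, -0.33) and 4 NDH genes rose and 4 fell. Of 7 Clp protease genes, 6 rose and 0 fell at the first step, and 0 rose and 2 fell at the second. Given the short lists, the second-step falls of photosystem II, NDH and Clp genes lie near the share of all loci. The same holds for the NDH rises. Of 4 genes of the plastid acetyl-CoA carboxylase, which starts fatty acid synthesis, 2 fell at the first step and all 4 at the second (BCCP2, AT5G15530, -1.78 and -1.85). The first step of these nuclear lists and of the plastid loci moved together with the dividing-cell markers, 4 of 5 of which fell, and the second step together with the senescing-leaf markers given above. Dividing-cell markers fell at the second step as well, 2 of 5 in control and 4 of 5 on mannitol, and 0 rose. The part that cell composition played in these changes was not tested.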

How the data were processed

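Per the submitters' processing notes, the deposited values are log2 expression levels made with RMA, 1 per locus and array. The sources used here do not state its version, how probes were assigned to loci or if the arrays shared a run. No further normalization or filter was applied. The number of arrays limits the precision. With limma 3.58.1 in R 4.3.3, 8 group means were fitted to 24 arrays over 20777 loci (prior SD 0.137, 6.02 prior degrees of freedom), and p was adjusted by Benjamini-Hochberg within a comparison. The fit was tested on simulated data.

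Groups follow the sample titles, since the treatment field names mannitol for every sample. Same-numbered mannitol and control samples were taken as paired where every correlation of their deviations from the group means exceeded 0.1. The lowest was 0.18 in seedlings, 0.27 in proliferating and 0.12 in expanding leaf. Mature leaf (0.06) and the stage comparisons did not meet this.

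The choice to describe the plastid loci, the gene lists and the alternatives was made with earlier results of these data known. The 73 members themselves follow from their codes alone. Named loci are the 5 largest rises and falls per stage comparison, the 3 smallest p per mannitol comparison, the 5 smallest p of the F test, the nuclear polymerase and sigma factor genes, and up to 2 genes per other nuclear list. Of these, those that add to the description are printed. Other loci and genes are named outside this rule because they were called or counted. Among them are loci called with the replicate block within each stage. Nuclear list genes called on mannitol or in the F test are others. A planned panel of plastid genes named by symbol could not be used, because the reference table (TAIR10.1) holds 0 of the 73 codes. For the same reason no plastid sequence is shown. Nuclear list members were kept where that table carries their name, a rule set after the data were seen. It dropped 1 of 8 polymerase and sigma factor genes (AT5G15700) and left the lists of Rubisco, cytochrome b6f and photosynthetic cell markers with under 3 members, so they were not used.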

Additional observations from a re-analysis of the deposited data

How the results depend on the processing

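Alternatives were array-median centring, quantile normalization, a replicate block over all groups, a fit of the 2 groups alone, leaving out dim loci, a prior that follows the mean level, and leaving out each array in turn. Calls over all loci under an alternative are printed only for centring, quantile normalization and the block within each stage. Between proliferating and expanding control leaf the plastid rises numbered 49 to 54 with an array left out and the falls 4 to 5 (3 in the fit of 2 groups), and 46 of 53 rises and 2 of 5 falls were called in all 12 alternatives. On mannitol the same step gave 46 to 51 rises and 4 to 5 falls, with 2 falls after centring and 8 after quantile normalization. From expanding to mature leaf, control gave 8 to 9 rises and 10 to 16 falls, with 9 falls after centring and 9 in the fit of 2 groups. Mannitol gave 7 to 12 rises and 8 to 14 falls. Seedlings against expanding leaf gave 1 to 5 higher and 9 to 14 lower loci, and 4 higher loci with quantile normalization, 4 with the prior that follows the level and 4 with the replicate block.

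The mannitol count in proliferating leaf was 0 to 3 rises with an array left out, 2 with quantile normalization, 2 with the prior that follows the level, 0 in the fit of 2 groups, and 7 with the replicate block within each stage. That block gave 1 fall each in seedlings, expanding leaf and mature leaf (where 4.76% of all loci rose and 3.96% fell), and 6 calls in the F test (where 8.51% of all loci were called). In mature leaf and in the F test, which includes it, the numbers did not meet the pairing criterion. The block over all groups changed no mannitol count. With an array left out the mature leaf counts were 0 to 2 rises and 0 to 1 falls and the F test 0 to 2 calls. The prior that follows the level gave 1 call in the F test. The mannitol effect was lower in expanding than in proliferating leaf for 0 to 2 loci with an array left out, 1 with quantile normalization, 1 without dim loci, 2 with the prior that follows the level and 6 with the block within each stage. That block also called 1 locus higher in mature than expanding leaf, where 3.17% of all loci were higher and 3.28% lower. It called 1 locus lower in mature than proliferating leaf, where 2.36% of all loci were higher and 2.52% lower. The causes of these differences between fits were not tested. The fits of 2 groups and those with an array left out use fewer arrays. None of the named loci (0) changed sign in any alternative.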
